A study of Mus musculus with 12 samples.

Results

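In all, 10 genes encoding amino acid transporters of the plasma membrane were followed across 4 groups of cultured mouse embryonic fibroblasts (MEFs), connective tissue cells grown from embryos. The genes were chosen by symbol, with the genotype and hypoxia differences in these same counts already known: Slc3a2, Slc7a5, Slc7a11, Slc7a1, Slc7a3, Slc1a4, Slc1a5, Slc38a1, Slc38a2 and Slc6a9. Every one of the 10 symbols matched 1 of the 48709 gene IDs in the count tables, and all 10 passed the filter on low counts that left 14408 genes for testing. The filter did not hinge on the group where a gene was high, because the lowest member, Slc7a3, had 20 counts or more in every library. Since the genes were named with those differences in view, the values below are a description of these genes and not independent evidence that transporters as a class behaved in a given way.

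All cells were of the C57BL/6 strain and were grown in DMEM with fetal bovine serum. WT cells and TAZKo cells, which lack tafazzin according to the series' design text, were each kept in normoxia or held in a hypoxia workstation for 24 h, with 3 samples in each of the 4 groups. Tafazzin, the product of the Taz gene, is the mitochondrial enzyme that remodels the lipid cardiolipin. The design text calls the WT cells isogenic. The oxygen level, the way the deletion was made and the number of clones or embryos behind the cells were not given in the sources used here, nor was it said whether the 3 samples of a group were separate cultures. The p-values therefore measure the spread between these samples, which may be technical.

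Cells take up amino acids through families of carriers with overlapping substrates. Slc7a5 (LAT1) and Slc7a11 (xCT) are light chains that reach the membrane as disulfide-linked heterodimers with the heavy chain Slc3a2 (4F2hc, CD98). LAT1 exchanges large neutral amino acids such as leucine, and xCT brings in cystine in exchange for glutamate, which feeds glutathione synthesis. Slc7a1 and Slc7a3 carry cationic amino acids such as arginine and lysine. Slc1a4 and Slc1a5 exchange small neutral amino acids including serine, and Slc1a5 also exchanges glutamine. Slc38a1 and Slc38a2 take up glutamine, alanine and other neutral amino acids together with sodium, and Slc6a9 takes up glycine. Several of these genes are textbook targets of ATF4, the transcription factor that is translated when amino acids are short or the endoplasmic reticulum or the mitochondria are stressed, and Slc7a11 is also a known target of NRF2 (Nfe2l2).

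Library totals ran from 21039451 to 31204510 counts, so that 3 counts were worth 0.0927 to 0.15 CPM after scaling, and the precision given by these depths covers counting error only. CPM here means counts scaled to a common library total with TMM, the trimmed mean of M values. The targeted gene was not lower in the libraries labelled TAZKo: Taz stood at 34.6 ± 2.92 CPM (SD, n = 3) in WT and 42.2 ± 3.18 CPM in TAZKo libraries in normoxia, and at 25.1 ± 1.49 and 33.8 ± 1.15 CPM in hypoxia, with log2 differences of 0.29 and 0.43 (edgeR quasi-likelihood adjusted p = 0.0139 and 0.00112). The labels are therefore not checked by this gene's transcript, and every genotype comparison below is between libraries labelled TAZKo and libraries labelled WT. WT normoxia 1 stood apart in its share of mitochondrial counts, 0.921% against 1.23% to 1.93% in the other 11 libraries. Without it, 9, 6, 8 and 6 of the transporters passed the test in the 4 pairwise comparisons, the same numbers as with it, and 6 rather than 4 in the interaction.

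Fibroblast markers were high in all groups, with Col1a1 at 1140 to 4130 CPM, Vim at 1200 to 3580 CPM and Pdgfra at 99.5 to 226 CPM. Of the 10 fibroblast markers, Lum with at most 2 counts and Thy1 with 2 to 8 counts were at or near 0, and Col1a2 was low at 1.51 to 5.93 CPM. The summed fibroblast markers were 5080 to 6090 CPM in WT and 4220 to 4420 CPM in TAZKo libraries in normoxia, and 7070 to 8130 and 5690 to 6090 CPM in hypoxia. Not all of these markers went with the sum. In normoxia the mean of Col1a1 was 2830 CPM in WT and 1150 CPM in TAZKo libraries. Vim was at 1280 and 1740 CPM and Pdgfra at 165 and 208 CPM. Pdgfrb was at 49.6 and 104 CPM and S100a4 at 19.3 and 45.6 CPM. Defining markers of other cell types were at or near 0: Ptprc, Cdh5, Emcn, Adgre1, Myod1 and Sox2 had at most 2 counts each. Their lists nevertheless moved with the groups, some through several genes. In normoxia Tek was at 16 CPM in WT and 4.91 CPM in TAZKo libraries, and Kdr at 3.15 and 0.998 CPM. Pecam1 went the other way, at 0.227 and 0.577 CPM. Krt14 was at 244 and 104 CPM and Krt18 at 132 and 99.8 CPM. Krt8 was at 1.2 and 0.492 CPM, and Epcam, with at most 17 counts, at 0.44 and 0.0449 CPM. Cdh1 was at 0.158 and 0.106 CPM, and Cldn4 had at most 2 counts. The 5 endothelial markers, led by Tek, summed to 18 to 21 CPM in WT and 5.64 to 7.48 CPM in TAZKo libraries in normoxia and to 14.5 to 20.5 and 3.84 to 5.05 CPM in hypoxia. The 6 epithelial markers, led by Krt14 and Krt18, summed to 345 to 430 and 196 to 211 CPM in normoxia and to 315 to 345 and 255 to 258 CPM in hypoxia. The 5 muscle markers, nearly all Des, summed to 3.73 to 5.04 and 9.01 to 10.1 CPM in normoxia and to 2.85 to 4.44 and 5.6 to 6.46 CPM in hypoxia. The 6 immune markers, led by Cd68 and Csf1r, summed to 4.49 to 5.57 and 4.48 to 5.3 CPM in normoxia and to 11.9 to 14 and 8.13 to 10 CPM in hypoxia. The 6 neural markers, mostly Nes and Mbp, summed to 289 to 335 and 286 to 309 CPM in normoxia and to 450 to 453 and 406 to 452 CPM in hypoxia. The part of these shifts in the transporter results was not tested, and in bulk RNA fewer cells of a type and less RNA per cell cannot be told apart.

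The regions just upstream of the genes are shown because Atf4, NRF2 and genes they are known to control are set beside the transporters further on. RefSeq windows on GRCm38.p6, from 250 bases before to 50 bases after a transcription start, were present for 6 of the 10 genes: Slc7a1, Slc7a11, Slc3a2, Slc1a4, Slc38a2 and Slc6a9, with 9 windows between them. Slc7a5, Slc1a5, Slc38a1 and Slc7a3 had no entry. Both strands were searched for TGATGNAAN, the composite element bound by ATF4 with C/EBP partners, for TGACNNNGC, the antioxidant response element core bound by NRF2, for the hypoxia response element core ACGTG and for the E-box CACGTG, which contains ACGTG. The composite element was found in the windows of Slc7a11 and Slc1a4 (4.0% of all 32851 windows hold it, and 4.5% of genes in any window). The antioxidant core was found in windows of Slc7a1, Slc38a2 and Slc6a9 (12.4% of all windows, and 14.0% of genes in any window). The 4 windows below were picked because each holds one of these elements at the start of a gene described further on, with the composite element in capitals in the first pair and the antioxidant core in capitals in the second pair. All lie on the minus strand and read 5′ to 3′: Slc7a11 chr3:50443564-50443863, Slc1a4 chr11:20332664-20332963, Slc7a1 chr5:148399855-148400154 and Slc38a2 chr15:96699679-96699978.
Slc7a11: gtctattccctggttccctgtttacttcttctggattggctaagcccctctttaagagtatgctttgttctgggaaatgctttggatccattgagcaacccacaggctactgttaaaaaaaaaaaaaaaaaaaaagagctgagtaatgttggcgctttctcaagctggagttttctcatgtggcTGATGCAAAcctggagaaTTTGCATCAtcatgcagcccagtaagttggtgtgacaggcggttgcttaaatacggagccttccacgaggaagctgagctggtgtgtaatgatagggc
Slc1a4: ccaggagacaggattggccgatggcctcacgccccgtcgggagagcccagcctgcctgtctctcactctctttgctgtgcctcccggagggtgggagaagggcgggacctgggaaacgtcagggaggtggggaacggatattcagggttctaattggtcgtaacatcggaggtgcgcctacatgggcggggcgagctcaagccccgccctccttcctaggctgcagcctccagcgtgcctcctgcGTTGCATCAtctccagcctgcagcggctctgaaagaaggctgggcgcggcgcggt
Slc7a1: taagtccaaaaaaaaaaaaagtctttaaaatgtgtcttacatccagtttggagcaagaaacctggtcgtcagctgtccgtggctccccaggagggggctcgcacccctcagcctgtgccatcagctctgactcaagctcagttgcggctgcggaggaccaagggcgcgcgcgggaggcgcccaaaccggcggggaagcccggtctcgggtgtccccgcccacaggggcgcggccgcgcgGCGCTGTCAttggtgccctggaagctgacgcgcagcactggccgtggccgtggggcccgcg
Slc38a2: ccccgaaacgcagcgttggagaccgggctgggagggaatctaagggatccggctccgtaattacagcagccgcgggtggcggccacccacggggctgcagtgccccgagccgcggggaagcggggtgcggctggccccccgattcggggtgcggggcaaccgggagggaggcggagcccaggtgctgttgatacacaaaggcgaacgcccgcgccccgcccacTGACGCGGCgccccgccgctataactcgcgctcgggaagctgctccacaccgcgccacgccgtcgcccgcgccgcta

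Counted from the upstream end, the Slc7a11 window held a composite element at bases 185 to 193 and another on the opposite strand at bases 203 to 211, and the Slc1a4 window held 1 on the opposite strand at bases 246 to 254. The antioxidant core lay at bases 240 to 248 of the Slc7a1 window on the opposite strand and at bases 224 to 232 of the Slc38a2 window. The Slc3a2 window, chr19:8713848-8714147 on the minus strand, held the ACGTG core on the opposite strand at bases 87 to 91 (19.6% of all windows hold ACGTG), and no E-box letters were found in the 9 windows (7.2% of all windows). A match of letters is a description of the sequence and not a binding site, and the libraries measured no binding.

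In normoxia, 9 of the 10 transporters were higher in the libraries labelled TAZKo by the edgeR quasi-likelihood test. Over all genes tested, 15.6% were called higher and 30.4% in either direction. The log2 differences of the 10 ran from 0.18 for Slc38a1, which did not pass, to 2.3 for Slc7a11, with a median of 0.87 against 0.01 over all genes. With 24 h of hypoxia in WT cells, 7 transporters rose and 1 fell, where 26% and 25% of all genes did so (51% in either direction). The median difference in WT was 0.98 against 0.009 over all genes. Hypoxia in the libraries labelled TAZKo raised 4 transporters and lowered 2 (22.2% and 21.6% of all genes, 43.8% in either direction), with a median of 0.03 against -0.009 over all genes. Between the genotypes in hypoxia, 5 transporters were higher and 1 was lower in the libraries labelled TAZKo (15.8% and 16.9% of all genes, 32.8% in either direction), with a median of 0.39 against -0.008. These comparisons share the same 12 libraries, so their values are set side by side and not counted as separate support.

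The hypoxia response itself differed between the genotypes for 4 of the 10: Slc3a2, Slc7a11, Slc7a1 and Slc6a9 all had a smaller response in the libraries labelled TAZKo. Over all genes, 2.43% passed this interaction test, 1.71% with the TAZKo response below the WT response and 0.722% with it above, that is 246 and 104 genes. That direction over all genes turned without a filter on low counts (327 below and 400 above) and without WT hypoxia 1 (296 below and 415 above). With the replicate number as a block, 6 of the 10 passed, Slc38a1 and Slc38a2 being added, and 639 of all genes. The numbers were taken to pair samples in only some of the comparisons behind the interaction: between genotypes in normoxia and between conditions in WT. There, samples numbered 2 and 3 also correlated across numbers, so pairing sample by sample was not shown. The median interaction of the 10 was -0.52 on the log2 scale against -0.016 over all genes, and Slc1a5 was the one member with a positive value.

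**Figure D1:**
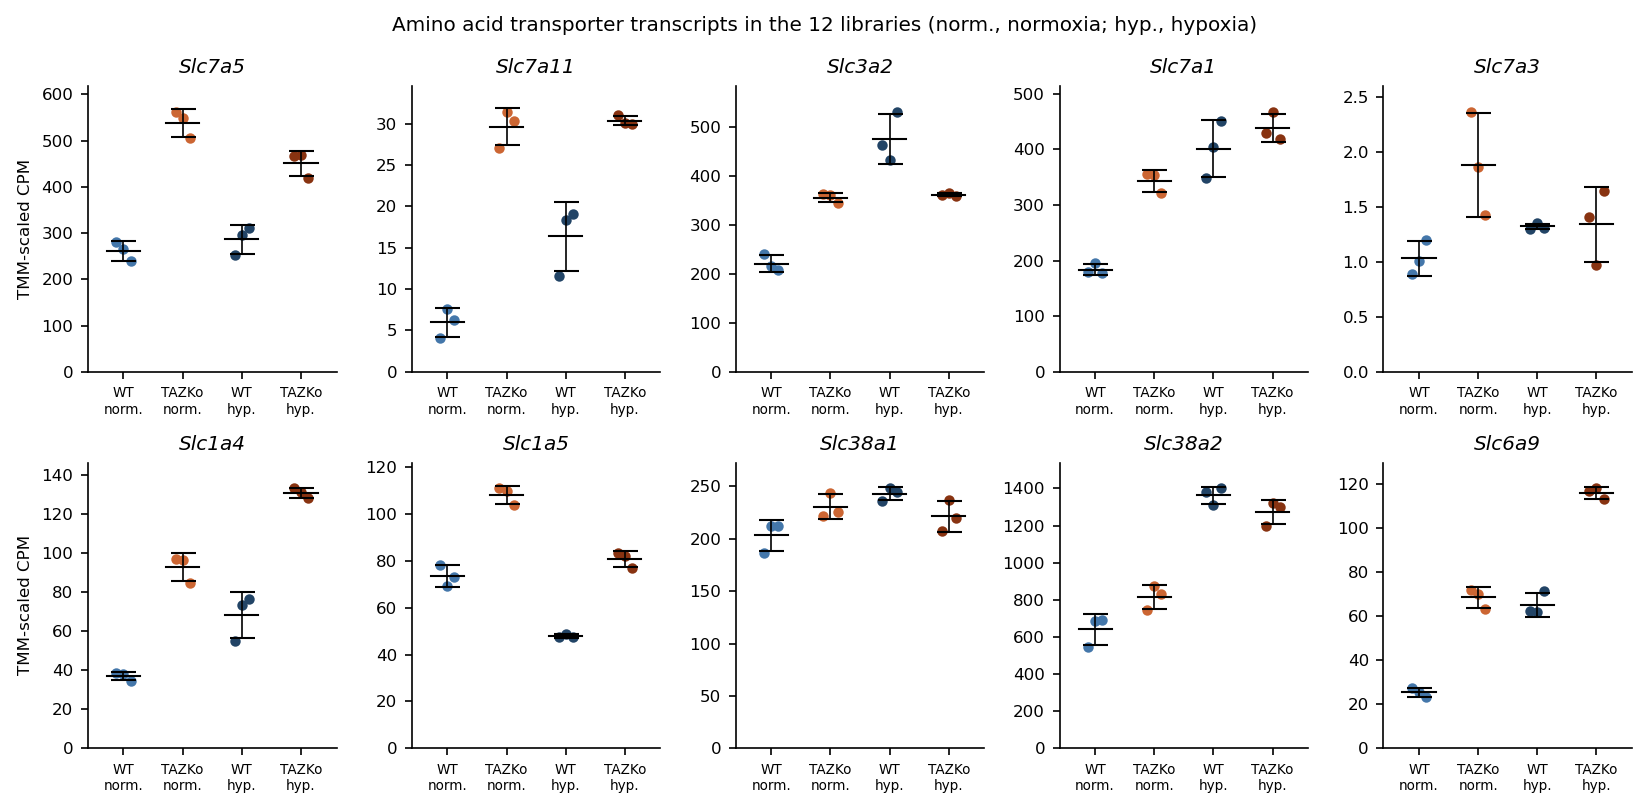
TMM-scaled CPM (vertical axes, linear, starting at 0) of the 10 transporters in the 4 groups; points are single libraries, long bars the mean of 3 and whiskers the SD. In normoxia the Slc3a2 points of the TAZKo libraries, 344 to 362 CPM, lie above those of the WT libraries, 207 to 240 CPM. In hypoxia the Slc3a2 points of the WT libraries, 432 to 530 CPM, lie above those of the TAZKo libraries, 359 to 365 CPM.

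The heavy chain Slc3a2 (ENSMUSG00000010095, chr19:8706882-8723369, minus strand) had 240, 215 and 207 CPM in WT and 362, 360 and 344 CPM in TAZKo libraries under normoxia, then 463, 432 and 530 CPM in WT and 361, 365 and 359 CPM in TAZKo libraries under hypoxia. The TAZKo libraries in both conditions lay within 344 to 365 CPM, between the 2 WT groups. In normoxia the log2 difference between TAZKo and WT was 0.69 (edgeR, SE 0.0756, adjusted p = 1.39e-05), and in hypoxia it was -0.39 (SE 0.0751, adjusted p = 0.00123), all 3 TAZKo libraries lying below all 3 WT libraries. Hypoxia raised Slc3a2 by 1.11 in WT (edgeR, SE 0.0761, adjusted p = 6.27e-08), a 2.15-fold rise, while in TAZKo libraries the difference was 0.03 with a 95% interval of -0.14 to 0.19. The response was smaller in TAZKo libraries by 1.08 on the log2 scale (interaction -1.08, edgeR, SE 0.107, adjusted p = 0.000222). The 492 tested genes of chromosome 19 had a median genotype difference of -0.268 in normoxia and -0.282 in hypoxia. These were lower than the median over all genes. In the same order the medians were -0.161 and -0.145 on chromosome 8, which holds Slc7a5. Chromosome 4, of Slc6a9, had 0.128 and 0.125, and chromosome 3, of Slc7a11, had 0.131 and 0.044. On the other members' chromosomes the medians lay from -0.062 to 0.062. The part of these shifts in the values of Slc3a2 and the other members was not tested.

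Slc7a5 (ENSMUSG00000040010, chr8:121881150-121907694, minus strand), the LAT1 light chain, had 281, 265 and 239 CPM in WT normoxia and 562, 549 and 505 CPM in TAZKo normoxia. In hypoxia it had 252, 297 and 312 CPM in WT and 466, 468 and 420 CPM in TAZKo libraries. The TAZKo libraries were thus above the WT libraries in each condition, and the 2 WT groups overlapped. The genotype difference was 1.04 in normoxia (edgeR, SE 0.086, adjusted p = 9.77e-07) and 0.65 in hypoxia (SE 0.0855, adjusted p = 6.34e-05). Hypoxia left WT libraries at a difference of 0.13 (95% interval -0.05 to 0.32, edgeR adjusted p = 0.206), and Slc7a5 fell by 0.26 in TAZKo libraries (SE 0.085, adjusted p = 0.026). This fall did not pass the test without TAZKo normoxia 1, TAZKo normoxia 2 or TAZKo hypoxia 3 (adjusted p up to 0.0718). The interaction of -0.39 did not pass with all libraries (edgeR adjusted p = 0.122) and passed without WT normoxia 1 (-0.45, adjusted p = 0.04) or without WT hypoxia 1 (-0.45, adjusted p = 0.0314).

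Slc7a11 (ENSMUSG00000027737, chr3:49892526-50443614, minus strand), the cystine carrier xCT, was low in WT normoxia at 4.11, 7.55 and 6.3 CPM, resting on 93 to 174 counts, and reached 27.1, 31.4 and 30.3 CPM in TAZKo normoxia. It had 11.6, 18.4 and 19.1 CPM in WT hypoxia and 31, 30.1 and 30 CPM in TAZKo hypoxia. No TAZKo library overlapped a WT library in either condition, and the 2 TAZKo groups overlapped each other. With a 4.93-fold difference in normoxia (log2 2.3, edgeR, SE 0.193, adjusted p = 1.12e-06), Slc7a11 had the largest genotype difference of the 10, and in hypoxia the difference was 0.88 (SE 0.175, adjusted p = 0.00166). Hypoxia raised it by 1.46 in WT (edgeR, SE 0.197, adjusted p = 3.65e-05). In TAZKo libraries the difference was 0.04 with a 95% interval of -0.33 to 0.4. The interaction was -1.42 (edgeR, SE 0.26, adjusted p = 0.0113), and without WT hypoxia 3 it was -1.265 and missed the threshold (adjusted p = 0.0512).

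Because both light chains need the heavy chain to reach the membrane, their transcripts were set against Slc3a2 within each library, as CPM per kilobase of the longest annotated transcript. Slc7a5 per Slc3a2 in WT libraries was 0.935, 0.985 and 0.924 under normoxia and 0.436, 0.549 and 0.471 under hypoxia. The same ratio in TAZKo libraries was 1.24, 1.22 and 1.18 under normoxia and 1.03, 1.03 and 0.936 under hypoxia. The WT hypoxia libraries thus had the lowest ratio, 0.485 ± 0.0578 (SD, n = 3), where the TAZKo hypoxia libraries had 0.999 ± 0.0543. Slc7a11 per Slc3a2 was 0.00522 to 0.0107 in WT and 0.0228 to 0.0269 in TAZKo libraries under normoxia, then 0.00761 to 0.013 in WT and 0.0251 to 0.0262 in TAZKo libraries under hypoxia. Of 8 comparisons of these ratios, 6 had groups that did not overlap, each with an exact two-sided permutation p = 0.1, the smallest that 3 samples against 3 allow, and an adjusted p of 0.133 over the 8. No lower value can come from this permutation test, and no model with pooled spread was fitted to the ratios. The hypoxia comparisons of Slc7a11 per Slc3a2 overlapped, with an exact permutation p of 0.4 in WT and 1.0 in TAZKo libraries. A ratio within a library shows unequal change and not which of its parts moved, and transcripts say nothing of how much protein was paired.

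**Figure D2:**
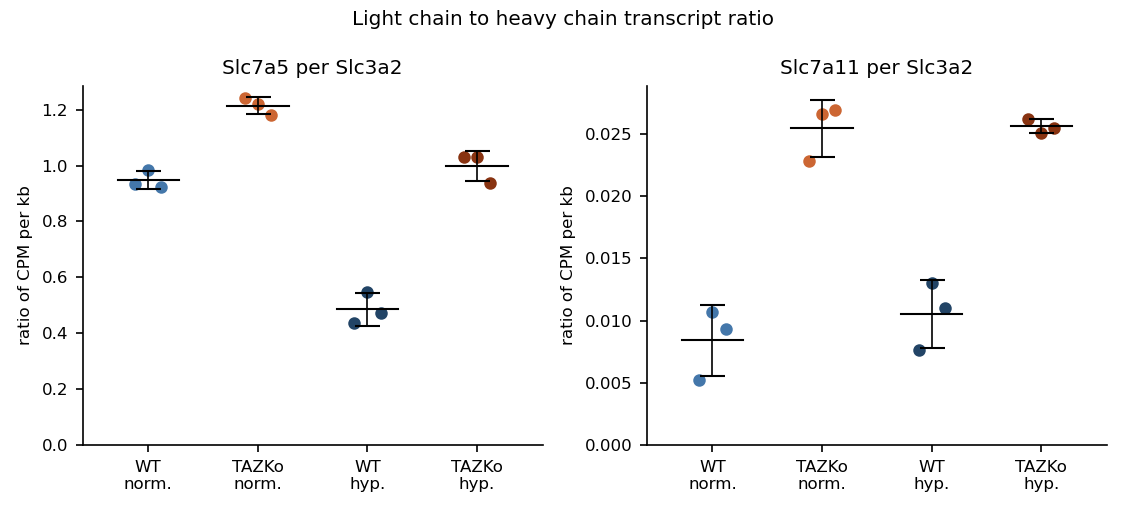
Ratio of light chain to heavy chain transcripts (CPM per kilobase over CPM per kilobase, linear axes from 0) in the 4 groups; points are libraries, long bars means of 3 and whiskers SDs. Slc7a5 per Slc3a2 is lowest in WT hypoxia, 0.436 to 0.549, and Slc7a11 per Slc3a2 lies at 0.0228 or above in all 6 TAZKo libraries and at 0.013 or below in all 6 WT libraries.

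Of the carriers of cationic amino acids, Slc7a1 (CAT1; ENSMUSG00000041313, chr5:148327410-148399904, minus strand) had 179, 195 and 177 CPM in WT and 355, 353 and 321 CPM in TAZKo libraries under normoxia, then 348, 404 and 451 CPM in WT and 430, 467 and 419 CPM in TAZKo libraries under hypoxia. The WT normoxia libraries stood below the other 3 groups, and the genotypes overlapped in hypoxia. The genotype difference was 0.9 in normoxia (edgeR, SE 0.087, adjusted p = 4.12e-06) and 0.13 in hypoxia (95% interval -0.06 to 0.31, adjusted p = 0.282). Hypoxia raised Slc7a1 by 1.13 in WT (edgeR, SE 0.0873, adjusted p = 1.97e-07) and by 0.36 in TAZKo libraries (SE 0.086, adjusted p = 0.00431), and these responses differed (interaction -0.77, SE 0.122, adjusted p = 0.00497).

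Slc7a3 (CAT3; ENSMUSG00000031297, chrX:101079210-101086020, minus strand) was the least abundant member and rested on few reads: 20, 23 and 33 counts in WT normoxia, 56, 43 and 46 in TAZKo normoxia, then with hypoxia 26, 30 and 36 in WT and 29, 28 and 47 in TAZKo libraries. Scaled to depth, these were 0.885 to 1.2, 1.42 to 2.36, 1.3 to 1.35 and 0.969 to 1.64 CPM. The groups were apart in normoxia and overlapped in hypoxia. Its genotype difference in normoxia, 0.83 (edgeR, SE 0.238, adjusted p = 0.0165), missed the threshold without WT normoxia 2, TAZKo normoxia 1 or TAZKo normoxia 2 (adjusted p up to 0.0885). No other comparison of Slc7a3 passed the test: the genotype difference in hypoxia was 0.02 (95% interval -0.51 to 0.54), the hypoxia difference was 0.34 in WT (-0.2 to 0.89) and -0.47 in TAZKo libraries (-0.96 to 0.01), and the interaction was -0.82 (edgeR adjusted p = 0.258). The hypoxia difference in TAZKo libraries passed without TAZKo normoxia 3 (-0.69, adjusted p = 0.0309) or without TAZKo hypoxia 3 (-0.70, adjusted p = 0.0454).

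The neutral exchangers of the SLC1 family moved in opposite directions with hypoxia. Slc1a4 (ASCT1; ENSMUSG00000020142, chr11:20302180-20332713, minus strand) had 38.7, 38 and 34.6 CPM in WT and 97.1, 96.6 and 84.6 CPM in TAZKo libraries under normoxia, then 54.7, 73.3 and 76.3 CPM in WT and 133, 131 and 128 CPM in TAZKo libraries under hypoxia. None of the 4 groups overlapped another. The genotype difference was 1.32 in normoxia (edgeR, SE 0.106, adjusted p = 7.71e-07) and 0.94 in hypoxia (SE 0.104, adjusted p = 1.49e-05), and hypoxia raised the gene by 0.88 in WT (SE 0.106, adjusted p = 1.33e-05) and by 0.49 in TAZKo libraries (SE 0.103, adjusted p = 0.00154). The interaction of -0.39 did not pass (95% interval -0.7 to -0.07, edgeR adjusted p = 0.211), except without WT hypoxia 1, its lowest hypoxia library (-0.50, adjusted p = 0.0165).

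Slc1a5 (ASCT2; ENSMUSG00000001918, chr7:16781340-16798274, plus strand) was the member that fell with hypoxia in both genotypes. It had 78.5, 69.2 and 73.1 CPM in WT normoxia and 47.7, 49 and 47.4 CPM in WT hypoxia, and 111, 110 and 104 CPM in TAZKo normoxia and 83.6, 82.1 and 77 CPM in TAZKo hypoxia. Hypoxia lowered it by 0.62 in WT (log2 difference -0.62, edgeR, SE 0.0625, adjusted p = 2.58e-06) and by 0.42 in TAZKo libraries (-0.42, SE 0.0611, adjusted p = 1e-04). TAZKo libraries were higher than WT libraries by 0.55 in normoxia (edgeR, SE 0.0614, adjusted p = 1.46e-05) and by 0.75 in hypoxia (SE 0.0624, adjusted p = 1.13e-06). The interaction of 0.2 had a 95% interval of 0.01 to 0.39 and did not pass after adjustment (edgeR adjusted p = 0.293).

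Among the sodium-coupled neutral carriers, Slc38a2 (SNAT2; ENSMUSG00000022462, chr15:96687392-96699730, minus strand) had 545, 685 and 692 CPM in WT and 747, 872 and 832 CPM in TAZKo libraries under normoxia, then 1380, 1310 and 1400 CPM in WT and 1200, 1320 and 1300 CPM in TAZKo libraries under hypoxia. The hypoxia libraries of both genotypes overlapped and lay above all normoxia libraries. Hypoxia raised it by 1.09 in WT (edgeR, SE 0.0887, adjusted p = 3.22e-07) and by 0.64 in TAZKo libraries (SE 0.088, adjusted p = 5.87e-05). The genotype difference was 0.35 in normoxia (edgeR, SE 0.0879, adjusted p = 0.00816), and it missed the threshold without TAZKo normoxia 2 (0.26, adjusted p = 0.0733) or TAZKo normoxia 3 (0.30, adjusted p = 0.0535). In hypoxia the difference was -0.09 (95% interval -0.28 to 0.09, edgeR adjusted p = 0.451). The interaction of -0.44 did not pass (edgeR adjusted p = 0.0858), and it passed without WT normoxia 1 (-0.34, adjusted p = 0.0439), by DESeq2 (-0.43, adjusted p = 0.0215) and without a filter on low counts (-0.39, adjusted p = 0.00492). It passed too when the fit was blocked on replicate number (-0.45, edgeR adjusted p = 0.0182).

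Slc38a1 (SNAT1; ENSMUSG00000023169, chr15:96571418-96642913, minus strand) lies beside Slc38a2 on the same chromosome and had the narrowest range of group means, 1.2-fold from lowest to highest. Its values were 186, 212 and 212 CPM in WT and 222, 244 and 226 CPM in TAZKo libraries under normoxia, then 236, 248 and 245 CPM in WT and 207, 237 and 220 CPM in TAZKo libraries under hypoxia. The genotype difference was 0.18 in normoxia (95% interval 0.03 to 0.33) and just missed the threshold (edgeR adjusted p = 0.0647), although the libraries did not overlap. The difference of 0.18 passed when the fit was blocked on replicate number (edgeR adjusted p = 0.013). Pairing sample by sample was not shown for this comparison, because samples numbered 2 and 3 also correlated across numbers. The Slc38a1 difference passed too with library size as the only scaling (edgeR adjusted p = 0.0391). Its rise in WT hypoxia was 0.26 (edgeR, SE 0.0695, adjusted p = 0.00716). That rise missed the threshold with library size as the only scaling (0.15, adjusted p = 0.0633), without a filter (0.18, adjusted p = 0.0726), with only the 6 WT samples (0.21, adjusted p = 0.0654), and without WT hypoxia 2 or WT hypoxia 3 (adjusted p = 0.0876 and 0.0754). With any of the 12 samples left out the rise was 0.183 to 0.234, below the value with all samples. The remaining values were -0.14 between genotypes in hypoxia (95% interval -0.28 to 0.01), -0.06 with hypoxia in TAZKo libraries (-0.21 to 0.09) and -0.32 for the interaction (edgeR adjusted p = 0.124). Blocking on the replicate number brought the interaction under the threshold (edgeR adjusted p = 0.0245).

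Slc6a9 (GlyT1; ENSMUSG00000028542, chr4:117834506-117875198, plus strand), the glycine carrier, had 27.5, 25.5 and 23.1 CPM in WT and 72, 70.3 and 63.2 CPM in TAZKo libraries under normoxia, then 62.4, 61.8 and 71.3 CPM in WT and 117, 118 and 113 CPM in TAZKo libraries under hypoxia. The TAZKo normoxia and WT hypoxia libraries overlapped, and no other pair of groups did. The genotype difference was 1.43 in normoxia (edgeR, SE 0.0818, adjusted p = 2.71e-08) and 0.83 in hypoxia (SE 0.0782, adjusted p = 3.53e-06), and hypoxia raised the gene by 1.36 in WT (SE 0.0819, adjusted p = 1.62e-08) and by 0.76 in TAZKo libraries (SE 0.0779, adjusted p = 4.31e-06). The interaction was -0.6 (edgeR, SE 0.112, adjusted p = 0.0125), and it missed the threshold without TAZKo normoxia 2 (-0.55, adjusted p = 0.057) or TAZKo hypoxia 3 (-0.56, adjusted p = 0.0513). These values are uncertain, because 41.17% of the 50-base words of its longest annotated transcript also occur, on either strand, in transcripts of other genes, chiefly the antisense genes Ccdc24 and Gm17114, B4galt2 overlaps it too, and whether the counting used strand is not given in the sources used here. Ccdc24 had means of 0.333 CPM in WT and 0.663 in TAZKo libraries under normoxia, then 0.675 in WT and 0.982 in TAZKo libraries under hypoxia. Its rise with hypoxia in WT passed (log2 0.95, edgeR adjusted p = 0.0431). B4galt2 had 40 CPM in WT and 46.8 in TAZKo libraries under normoxia, then 28.5 in WT and 39.5 in TAZKo libraries under hypoxia. B4galt2 fell with hypoxia in both genotypes (log2 -0.49 for WT, edgeR adjusted p = 0.000331, and -0.25 for TAZKo, adjusted p = 0.0288). Under hypoxia its genotype difference was 0.47 (edgeR adjusted p = 0.000883). The part of either neighbour in the counts of Slc6a9 was not tested.

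**Figure D3:**
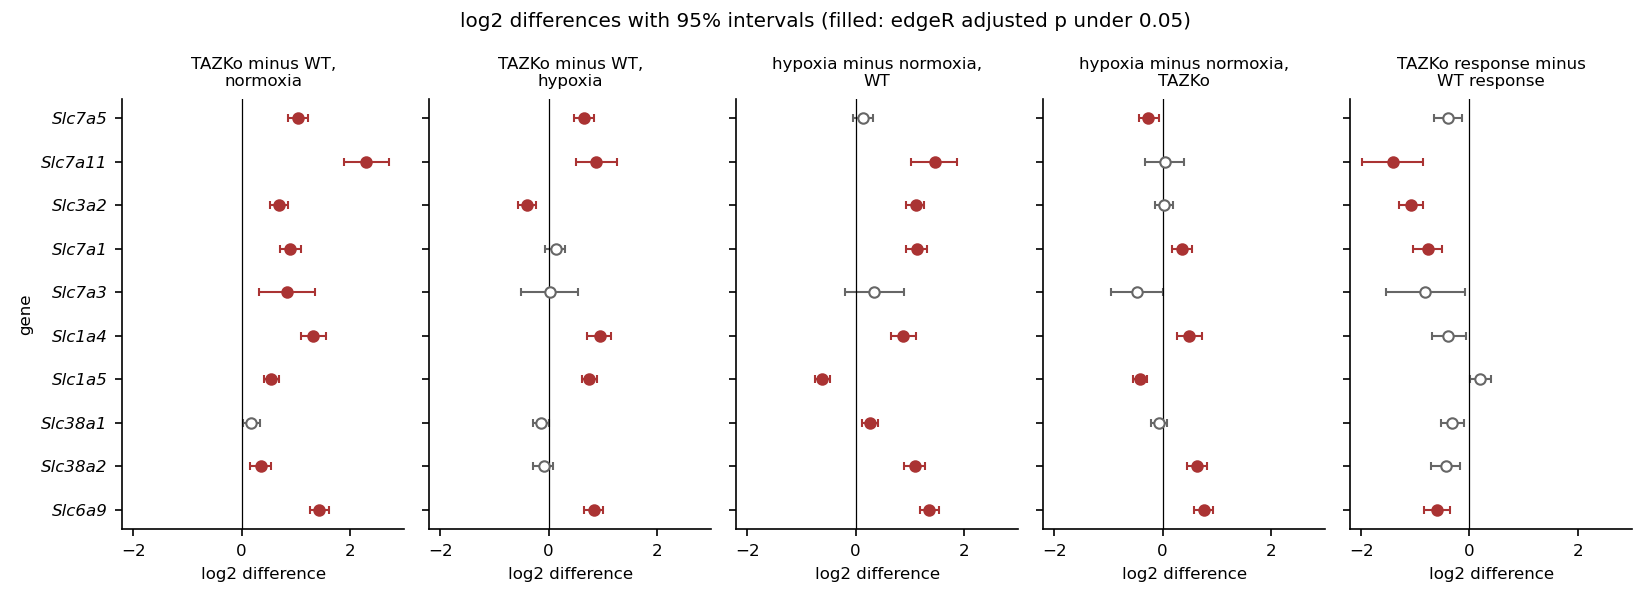
Log2 differences of the 10 transporters (horizontal axis) with 95% intervals from the edgeR fit, in 1 panel per comparison and with the interaction last; filled points passed the adjusted p of 0.05. In the normoxia genotype panel 9 of the 10 points are filled and all lie to the right of 0, and in the interaction panel the filled points are Slc7a11 at -1.42, Slc3a2 at -1.08, Slc7a1 at -0.77 and Slc6a9 at -0.6.

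Per kilobase of transcript, the order of the members' levels was led by Slc38a2, Slc3a2 and Slc7a5 in every group. In WT normoxia Slc38a2 had 105 ± 13.6 CPM per kilobase (SD, n = 3), Slc3a2 78.4 ± 6.24 and Slc7a5 74.3 ± 6.04, the last pair overlapping. Slc38a1, Slc1a5 and Slc7a1 followed at 28, 26.2 and 25.6 and overlapped with their neighbours, then came Slc1a4 at 9.44, Slc6a9 at 7.3, Slc7a11 at 0.649 and Slc7a3 at 0.374, each apart from the next. In TAZKo normoxia Slc7a5 was first at 153 ± 8.4, apart from Slc38a2 at 134 ± 10.4, which overlapped with Slc3a2 at 126 ± 3.52. In WT hypoxia Slc38a2 at 223 ± 7.81, Slc3a2 at 169 ± 17.7 and Slc7a5 at 81.6 ± 8.79 were apart from each other, while Slc6a9, Slc1a4 and Slc1a5 overlapped at 18.7, 17.3 and 17.1. In TAZKo hypoxia Slc38a2 at 208 ± 11 was apart from Slc7a5 at 128 ± 7.84 and Slc3a2 at 128 ± 1.06, and the 4 members from Slc6a9 at 33.3 to Slc1a5 at 28.8 overlapped with their neighbours. With the length of all annotated exons instead, Slc3a2 and Slc38a2 changed places in TAZKo normoxia and Slc7a5 and Slc3a2 in WT normoxia. Slc38a1, with 28 CPM per kilobase of its longest transcript and 11.8 per kilobase of all exons in WT normoxia, moved from place 4 to 6 there. It moved down 1 place in each of the other groups. Slc7a1, Slc1a4, Slc1a5 and Slc6a9 also moved in at least 1 group, so the order depends on the length used. Summed over the 10, the level per kilobase was 355 ± 6.93 in WT and 578 ± 19.5 in TAZKo libraries under normoxia, then 618 ± 37.6 in WT and 656 ± 18.2 in TAZKo libraries under hypoxia.

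Of 30 other amino acid transporters of the plasma membrane, listed by family, 13 passed the filter, and the other 17 had at most 13 counts in any library, 5 of them 0 throughout. Of the 13, Slc1a2 passed the filter through WT hypoxia, where it had 12 to 20 counts. It had 1 to 6 counts in WT normoxia, 5 to 11 in TAZKo normoxia and 6 to 13 in TAZKo hypoxia. It is among the 6 raised by hypoxia in WT and the 5 lower between genotypes in hypoxia given next. Those 2 calls of Slc1a2 are not independent of the filter. Between genotypes 3 of the 13 were higher and 3 lower in normoxia (15.6% and 14.9% of all genes). In hypoxia 3 were higher and 5 lower (15.8% and 16.9% of all genes). Hypoxia raised 6 and lowered 3 in WT (26% and 25% of all genes). It raised 4 and lowered 4 in TAZKo libraries (22.2% and 21.6% of all genes). The interaction passed for 2, where 2.43% of all genes did. Their medians were 0.46, -0.11, 0.32 and 0.29 in these 4 comparisons. Slc38a4 (SNAT4) rose from 1.65 ± 0.399 to 6.89 ± 0.934 CPM with hypoxia in WT (log2 2.07, edgeR adjusted p = 2.25e-06) and from 2.35 ± 0.682 to 3.84 ± 0.302 CPM in TAZKo libraries (0.73, adjusted p = 0.0105), and these responses differed (interaction -1.34, SE 0.296, adjusted p = 0.0305). The other interaction called in this list was that of Slc16a10 (TAT1), a carrier of aromatic amino acids named here after its values were seen (-0.76, edgeR, SE 0.123, adjusted p = 0.00531). Slc43a2 (LAT4) fell with hypoxia by 1.5 in WT (from 23.5 to 8.32 CPM, log2 -1.5, edgeR adjusted p = 2.45e-07) and by 1.12 in TAZKo libraries (-1.12, adjusted p = 5.46e-06). Slc7a7 (y+LAT1), another light chain of Slc3a2, fell from 1.46 to 0.837 CPM in WT (log2 -0.82, edgeR adjusted p = 0.00377) and from 1.55 to 0.701 CPM in TAZKo libraries (-1.13, adjusted p = 0.000454). Slc6a15, another sodium-coupled neutral amino acid carrier, was at 1.23 CPM or less in all group means, with a genotype difference of 1.12 in hypoxia (edgeR adjusted p = 0.0128).

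Among 8 transporters of the lysosomal membrane, 7 were tested, and their hypoxia calls were 4 higher and 1 lower in each genotype, with 1 higher and 2 lower between genotypes in normoxia and 1 higher and 1 lower in hypoxia. Over all genes, hypoxia calls were 26% higher and 25% lower in WT and 22.2% and 21.6% in TAZKo libraries. Genotype calls were 15.6% and 14.9% in normoxia and 15.8% and 16.9% in hypoxia. Ctns, the cystine exporter of lysosomes, rose with hypoxia from 25.5 to 48.4 CPM in WT (log2 0.92, edgeR adjusted p = 4.93e-08) and from 21.6 to 47.7 CPM in TAZKo libraries (1.14, adjusted p = 9.49e-09). A wider set held the 166 tested Slc genes other than the members and outside the mitochondrial Slc25 family. It includes the tested Slc genes of the plasma membrane and lysosomal lists above. Between genotypes, 32 of the 166 were higher and 29 lower in normoxia, and 38 and 39 in hypoxia. Hypoxia raised 50 and lowered 39 of them in WT and raised 47 and lowered 36 in TAZKo libraries, and 2.41% of them passed the interaction test.

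A list of 15 regulators of amino acid and stress responses was read beside the transporters. In normoxia 10 were higher in the libraries labelled TAZKo (15.6% of all genes) and the other 5 did not pass. In hypoxia 5 were higher and 4 lower (15.8% and 16.9% of all genes). Hypoxia raised 13 in WT (26% of all genes), where the other 2 did not pass. It raised 8 and lowered 1 in TAZKo libraries (22.2% and 21.6% of all genes). The interaction passed for 6 (2.43% of all genes), all with the smaller response in TAZKo libraries. Atf4, whose messenger encodes the factor named above and is mainly controlled at translation, had 376 ± 45.5 CPM in WT and 601 ± 37.7 in TAZKo libraries under normoxia, then 806 ± 57.8 in WT and 783 ± 5.78 in TAZKo libraries under hypoxia (interaction -0.72, edgeR, SE 0.117, adjusted p = 0.00554). The genotype difference of Atf4 was 0.67 in normoxia (edgeR adjusted p = 3.82e-05), whereas the hypoxia value was -0.04 (adjusted p = 0.744).

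Trib3, Chac1, Sesn2 and Ddit3, known targets of ATF4, had genotype differences of 2.37, 1.92, 1.76 and 1.28 in normoxia. In hypoxia these differences were 0.59, 0.24, 0.64 and 0.43, and that of Chac1 did not pass (edgeR adjusted p = 0.114). Trib3, a pseudokinase, had 21.9 ± 4 CPM in WT and 113 ± 10.1 in TAZKo libraries under normoxia, then 162 ± 17.2 in WT and 244 ± 15.3 in TAZKo libraries under hypoxia (interaction -1.79, edgeR, SE 0.164, adjusted p = 0.00016). Chac1, which breaks down glutathione, had 30.3 ± 4.18, 114 ± 7.76, 92.7 ± 12.1 and 110 ± 9.82 CPM in the same order (interaction -1.68, edgeR adjusted p = 0.00016), and Sesn2, a leucine sensor upstream of mTORC1, had 37.6 ± 3.75, 127 ± 8.5, 88.3 ± 14.7 and 138 ± 4.16 CPM (interaction -1.12, adjusted p = 0.00185). Ddit3 (CHOP) had 18.4 ± 2.61, 44.6 ± 1.81, 88.1 ± 3.93 and 119 ± 10.6 CPM (interaction -0.85, edgeR adjusted p = 0.00446). Atf3, which also belongs to the ATF4 stress response, was lower in TAZKo than in WT libraries after hypoxia (-1.3, edgeR adjusted p = 5.87e-07). It had 7.61 ± 0.441, 10.6 ± 0.638, 111 ± 16.5 and 45.1 ± 4.48 CPM (interaction -1.78, edgeR adjusted p = 0.00016). Atf5 was higher in TAZKo libraries in normoxia (1.09, edgeR adjusted p = 1.61e-06) and also under hypoxia (0.81, adjusted p = 2.41e-05).

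Nfe2l2, which encodes NRF2, differed by 0.26 between genotypes in normoxia (edgeR adjusted p = 0.0105), and the hypoxia difference of 0.16 did not pass (adjusted p = 0.0892). Myc rose with hypoxia by 1.63 in WT (edgeR adjusted p = 7.61e-08) and by 1 in TAZKo libraries (adjusted p = 9.95e-06), with an interaction of -0.63 that did not pass (adjusted p = 0.0558). Hif1a rose with hypoxia by 0.63 in WT and 0.51 in TAZKo libraries (edgeR adjusted p = 0.00207 and 0.0101) and was lower in TAZKo libraries in hypoxia (-0.48, adjusted p = 0.0183). Epas1, which encodes HIF-2 alpha, differed by 0.31 between genotypes in normoxia (edgeR adjusted p = 0.0151) and by 0.3 with hypoxia in WT (adjusted p = 0.01). Of the genes named from these lists, Slc7a7, Hif1a, Slc43a2 and Ddit3 have 8.12%, 7.25%, 6.65% and 6.09% of their 50-base words in common with another gene ID, and a part of their counts could belong elsewhere.

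**Figure D4:**
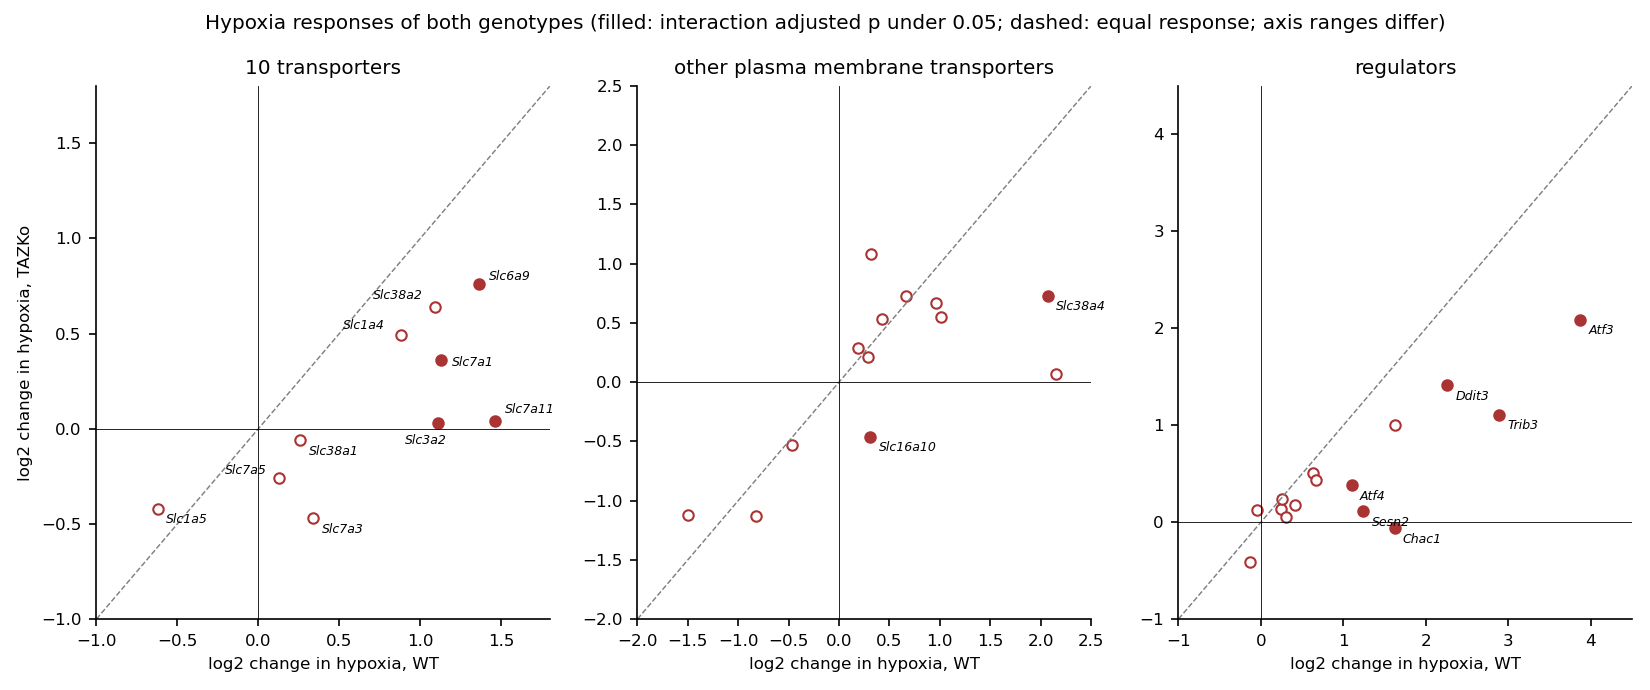
Log2 hypoxia response in libraries labelled WT (horizontal axis) against that in libraries labelled TAZKo (vertical axis) for the 10 transporters, the 13 tested other plasma membrane amino acid transporters and the 15 regulators; each point is a gene, filled where the interaction passed the adjusted p of 0.05, the dashed line marks equal responses, and axis ranges differ between panels. The filled points, 4, 2 and 6 of them, all lie below the dashed line.

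The genes whose levels ran most like those of a member were found by Pearson correlation of log2 CPM over the 12 libraries, among 9429 genes with a mean of at least 10 CPM; the libraries form 4 groups, so these values are a description of shared group patterns. Slc7a1 was most like Dhrs9 (r = 0.988) and Trib3 (0.984), and Slc7a5 most like Cth (0.984), which makes cysteine, and Pck2 (0.983), the mitochondrial form of PEP carboxykinase. The levels of Cth were 11.5 to 13.91 CPM in WT and 75.66 to 90.1 in TAZKo libraries under normoxia, then 15.66 to 23.18 in WT and 50.39 to 57.28 in TAZKo libraries under hypoxia, the order of groups seen for Slc7a5. Slc7a11 was most like Deptor (r = 0.978) and Ppp1r12a (0.977), and Slc3a2 most like Ccn1 (0.986) and Tmem268 (0.946). Ccn1, a secreted matrix protein, had 124.27 to 140.93 CPM in WT normoxia, 372.28 to 462.85 CPM in WT hypoxia and 240.84 to 257.66 CPM in the 6 TAZKo libraries. Slc1a4 was most like Ccnd1 (r = 0.988), the cyclin D1 gene, and Eif3c (0.985), and Slc1a5 most like Fam219b (0.993) and Serpinf1 (0.99). Slc38a2 was most like Fermt2 (0.992) and Afdn (0.99), and Slc6a9 most like Cdsn (0.995) and Sdc3 (0.994). The weakest likenesses were those of Slc38a1, with mt-Rnr2 (0.898) and Adamts5 (0.892), and of Slc7a3, with Rbm6 (0.845) and Gpx8 (0.834). The mitochondrial transcript mt-Rnr2 was lowest in WT normoxia 1, at 160.83 CPM, the library that also stood apart in its mitochondrial share and had the lowest Slc38a1 value.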

How the data were processed

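RNA-seq libraries of 12 mouse embryonic fibroblast samples, 3 in each of 4 groups, were prepared, per the labels' protocols, with a TruSeq kit of Illumina. For each sample the authors deposited a table of raw counts, whole numbers of reads for each Ensembl gene, and no normalization is recorded. The submitters' processing notes name the build mm10. The aligner, the counter, its annotation, its use of strand and its treatment of shared reads are not given in the sources used here. Of 48709 gene IDs, 48349 matched a symbol by ID, and coordinates are those of GENCODE M21 on GRCm38.

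Low counts were filtered with filterByExpr by group and the quasi-likelihood model of edgeR 4.0.16 (R 4.3.3) was used with TMM scaling and 1 coefficient per group over all 12 samples, which was tested on simulated data. P-values were adjusted by Benjamini-Hochberg over the 14408 genes tested, with a threshold of 0.05. Standard errors are the log2 difference over the square root of F, and intervals are 95% t intervals. Correlations used log2 CPM with a prior count of 2. Ratios within libraries were compared with exact permutation tests. The transporters and the other lists were chosen with earlier results of these data known. All 10 transporters are named. Of the other lists, genes are named when a called pairwise difference reached 1 on the log2 scale with a group mean of at least 1 CPM, with Atf4, Nfe2l2, Myc, Hif1a and Epas1 always named. For likeness, the 2 most correlated genes are given. Identity between the proteins was not computed.

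Alternatives were other scaling (RLE factors, library size alone), DESeq2 1.42.0, filters (none, or 5 CPM on average), only the samples compared, the sequencing lane named in the tables' names, a block for the replicate number, the length of all annotated exons, and leaving out each sample. Deviations of same-numbered samples correlated at 0.149 to 0.354 between genotypes in normoxia and at 0.152 to 0.368 between conditions in WT. These were over 0.1 in 3 of 3 pairs each, so the numbers were taken to pair these samples. Samples numbered 2 and 3 also correlated across numbers, at 0.112 and 0.116 between genotypes in normoxia and at 0.18 and 0.147 between conditions in WT. The values set number 1 apart from numbers 2 and 3 and do not show pairing sample by sample. The numbers did not pair samples by this measure between genotypes in hypoxia (-0.024 to 0.121) or between conditions in TAZKo libraries (-0.024 to 0.095). Replicates of a group correlated at a Spearman rho of 0.9888 to 0.9981 across genes, and no pair was identical.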

Additional observations from a re-analysis of the deposited data

Results flagged for a closer look

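Each gene given here had hypoxia responses that differed between libraries labelled TAZKo and WT by the edgeR interaction test, with the lower log2 response in the libraries labelled TAZKo in all 12; for Slc16a10 the responses were 0.31 in WT and -0.46 in TAZKo libraries. Among the 10 transporters the interactions on the log2 scale were -1.42 for Slc7a11, -1.08 for Slc3a2, -0.77 for Slc7a1 and -0.6 for Slc6a9. Among the other plasma membrane transporters they were -1.34 for Slc38a4 and -0.76 for Slc16a10. Among the regulators they were -1.79 for Trib3, -1.78 for Atf3, -1.68 for Chac1, -1.12 for Sesn2, -0.85 for Ddit3 and -0.72 for Atf4. No test for outlying samples was run in groups of 3. WT normoxia 1 stood apart in its mitochondrial share, and each sample was left out in turn.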

How the results depend on the processing

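The numbers of transporters called stayed within 1.5 times the reported ones in every alternative run. With each sample left out in turn they were 7 to 9 between genotypes in normoxia, 6 in hypoxia, 7 to 8 with hypoxia in WT, 5 to 7 with hypoxia in TAZKo libraries and 3 to 6 for the interaction. With the replicate number as a block they were 10, 7, 8, 6 and 6, where the interactions of Slc38a1 (adjusted p = 0.0245) and Slc38a2 (0.0182) and the genotype difference of Slc38a1 in hypoxia (-0.137, 0.0471) were added. The numbers were not taken to pair the samples between genotypes in hypoxia. With lane as a covariate the transporters called were 9, 6, 8, 6 and 4. Samples numbered 1 were on lane 4 and samples numbered 3 on lane 5. Samples numbered 2 were on lane 4 in normoxia and on lane 5 in hypoxia. The block and lane alternatives therefore do not fully separate lane, replicate number and hypoxia. Of the 50 transporter values, 34 kept their direction and side of the threshold in every alternative that could test them and 16 did not in at least 1, 7 of these in an alternative other than leaving out a sample. Values near 0 changed sign: Slc7a11 with hypoxia in TAZKo libraries was -0.058 with library size alone, -0.023 with lane as a covariate and -0.059 to 0.052 with a sample left out; Slc3a2 in the same comparison was -0.068 with library size alone and -0.027 to 0.025 with a sample left out; and Slc7a3 between genotypes in hypoxia was -0.187 to 0.211 with a sample left out. Leaving out any sample also changed the filter and the scaling. Then 14664 to 14707 genes were tested, and the median over all genes with hypoxia in WT was -0.048 to -0.007 (0.009 with all samples). The part of this shift in the changed values was not tested, nor was any other cause. Over all genes, the 350 interactions called became 578 by DESeq2 (2514 adjusted p-values not given), 727 without a filter, 639 with the block and 174 to 711 with a sample left out, from 174 without TAZKo normoxia 2 to 711 without WT hypoxia 1. More of them were lower than higher (246 and 104) except without a filter (327 and 400) and without WT hypoxia 1 (296 and 415). At an unadjusted p under 0.05 there were 2273. The other transporters called between genotypes in hypoxia fell from 8 to 4 with a mean of at least 5 CPM, and their interactions from 2 to 1, where fewer genes were tested. They were 4 to 8 and 1 to 2 with a sample left out. Library size alone gave 2966 genes higher and 4817 lower with hypoxia in WT (3750 and 3605 with TMM) and 2470 and 4393 in TAZKo libraries (3198 and 3111), with medians of -0.097 and -0.103. Slc7a3, with 20 to 56 counts, was not tested with a mean of at least 5 CPM, and its few counts leave it the least precise of the 10.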
